A study of Mus musculus with 6 samples.

Results

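Exonic antisense lncRNAs are long non-coding RNAs whose listed interval lies on the strand opposite an annotated gene and covers at least part of an exon of that gene. They were taken from a deposited lncRNA table as the rows that the authors labelled exonic antisense, without use of any measured value, and they numbered 2989 of the 24817 features listed. The data came from RAW264.7 cells, an established mouse macrophage line, sequenced in 6 libraries. All cells had been stimulated with LPS, a bacterial cell wall component, for 24 h before the medium was exchanged. In the LPS_ES_PMMA group (3 libraries) the new medium was an extract of PMMA bone cement made with enoxaparin sodium (ES-PMMA), and in the LPS_PMMA group (3 libraries) it was an extract of PMMA cement without enoxaparin. The titles name the second group LPS_PMMA, while the columns of the table call it LPS, so the columns were tied to it by the replicate columns named in the sample descriptions. Unstimulated cells and cells given LPS alone were not analysed here. The labels also give the abdominal cavity as tissue. The table holds lncRNAs, so the levels of macrophage marker mRNAs were not analysed here.

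Antisense transcripts arise when the strand opposite a gene is transcribed from its own promoter or from a neighbouring one. Some act on the gene they cover, by pairing with its mRNA, by interfering with its transcription or by recruiting chromatin regulators, and others have no known role. In macrophages, LPS switches on inflammatory genes through NF-kB and, through secreted type I interferon, a second set of antiviral genes.

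The overlap that defines this class is shown for 5 features that carry the results below. Each line gives an exon of the opposite gene in that gene's own 5′ to 3′ direction, so the antisense RNA would pair with it. Capitals mark the coding bases of that exon that lie inside the listed interval of the antisense feature, and lower case marks up to 15 coding bases on either side in the spliced transcript. Sequences and positions are those of GENCODE M21 (build GRCm38, the Ensembl name of mm10). The capitals of the Slfn8 line are chr11:83013365-83013499 on the minus strand, and belong to the feature that fell most. Those of the Sp110 line, chr1:85595962-85596108 on the minus strand, open with the start codon of the gene. The Rph3a line covers chr5:120962399-120962485 on the minus strand, under a feature that fell in each of 6 leave-one-out fits (1 library left out at a time). The Sec14l1 line (chr11:117143781-117144015, plus strand) and the Ankle2 line (chr5:110231237-110231304, plus strand, with the start codon) lie under features that rose.
NONMMUT084037.1 over Slfn8: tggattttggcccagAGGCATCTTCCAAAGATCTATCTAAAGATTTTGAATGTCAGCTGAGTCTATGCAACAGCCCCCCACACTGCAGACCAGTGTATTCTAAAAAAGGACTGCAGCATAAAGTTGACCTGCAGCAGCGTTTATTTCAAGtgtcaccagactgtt
NONMMUT001786.2 over Sp110: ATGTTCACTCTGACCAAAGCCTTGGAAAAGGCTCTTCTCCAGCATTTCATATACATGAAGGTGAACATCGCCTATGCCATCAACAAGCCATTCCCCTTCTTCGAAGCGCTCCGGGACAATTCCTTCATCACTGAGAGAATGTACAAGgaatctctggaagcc
NONMMUT119339.1 over Rph3a: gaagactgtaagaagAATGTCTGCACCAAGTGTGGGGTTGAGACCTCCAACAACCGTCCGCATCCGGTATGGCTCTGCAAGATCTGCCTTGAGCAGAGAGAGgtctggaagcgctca
NONMMUT012898.2 over Sec14l1: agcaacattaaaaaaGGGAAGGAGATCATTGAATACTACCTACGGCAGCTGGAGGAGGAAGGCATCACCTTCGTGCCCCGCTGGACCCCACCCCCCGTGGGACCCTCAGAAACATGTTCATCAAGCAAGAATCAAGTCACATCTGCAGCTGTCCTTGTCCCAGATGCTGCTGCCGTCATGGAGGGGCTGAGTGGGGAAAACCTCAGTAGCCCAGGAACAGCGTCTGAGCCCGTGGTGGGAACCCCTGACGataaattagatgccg
NONMMUT149642.1 over Ankle2: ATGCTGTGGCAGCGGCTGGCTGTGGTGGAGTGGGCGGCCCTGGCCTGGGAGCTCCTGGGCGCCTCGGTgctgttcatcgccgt
The capitals cover 135, 147, 87, 235 and 68 bases in this order, and in the first 4 they make up a whole coding exon. The Sec14l1 interval holds 646 coding bases in several exons, of which the longest stretch is shown, so its lower-case bases before the capitals also lie inside the interval. In the other lines the capitals are all the coding bases of the interval. Their GC content ranged from 43.0% in Slfn8 to 73.5% in Ankle2. The exon structure of these NONCODE features (identifiers that begin with NONMMUT) was not analysed here, so an interval with several exons may cover an exon that its RNA skips.

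The features lay opposite 2353 genes. Most of these genes, opposite 2588 features, encode proteins, and others are pseudogenes (237 features), TEC models, which await experimental evidence (48), microRNAs (24), snRNAs (22) or snoRNAs (14). More than 1 feature was listed opposite 504 genes, with up to 7 opposite Fam214b, and features of the same strand that overlap merged into 2551 loci. All 2989 intervals overlapped an exon of their gene in GENCODE M21, with a median overlap of 549 bp (quartiles 222 and 1347 bp), and 1945 overlapped a coding exon. In position, 1283 features lay inside the opposite gene, 822 crossed its 5′ end, 562 crossed its 3′ end and 322 spanned it whole. The median transcript length was 1252 nt, with quartiles of 662 and 2272 nt.

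NONCODE supplied 2350 of the identifiers and Ensembl 639. The own exons of 636 Ensembl transcripts could be read from the annotation, and 515 of them met an exon of the opposite gene. The other 121 met none, so for them the label rests on the interval and not on exons. Atxn7l1os1, the Ensembl-named antisense transcript of Atxn7l1, and Gm20559, both described below, are among these 121. So are 3 features opposite interferon-list genes named below, those opposite Sp100, Slfn2 and Psmb10. The strand deposited for each of the 2989 features is that of the opposite gene. The strand of a feature was therefore set opposite to it, as the label implies. The annotation gave that strand for all 636 Ensembl transcripts, while the strand of NONCODE features was not checked. On their own strand, 121 features also held an exon of a protein-coding gene in their interval.

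Most of the class was rare RNA. The median feature had a mean of 0.837 FPKM over the 6 libraries (the authors' level per transcript length and library depth), with quartiles of 0.254 and 2.51. A mean of at least 1 FPKM was reached by 1365 features, at least 10 by 181 and at least 100 by 15. Reads appeared in all 6 libraries for 1312 features, and 1037 features held fewer than 10 reads in total. The medians of other lncRNA classes in the table were 0.707 FPKM for exonic sense, 0.846 FPKM for intergenic and 1.15 FPKM for intronic antisense features.

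**Figure D1:**
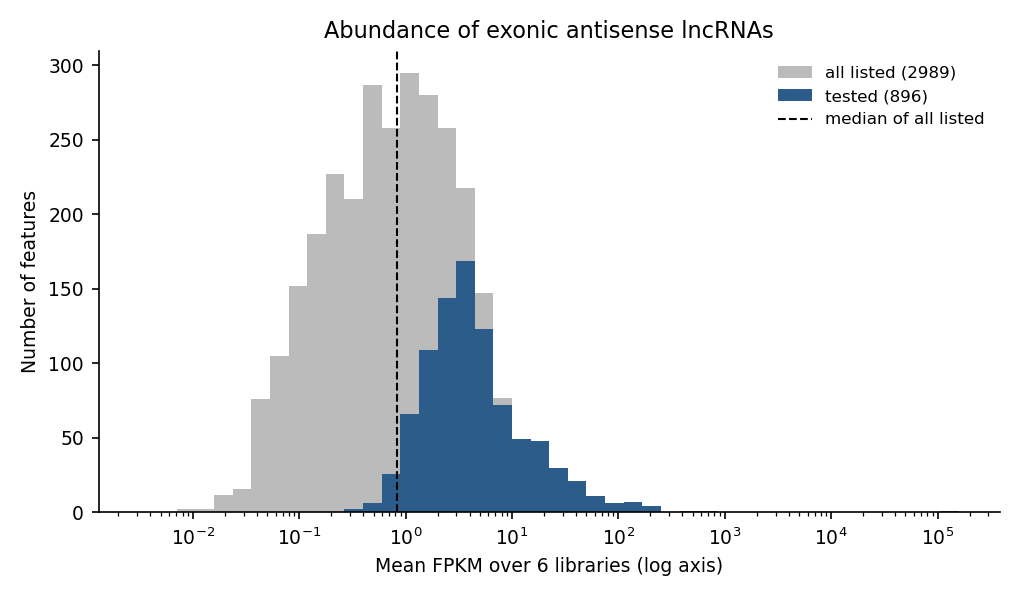
Mean FPKM over the 6 libraries (log axis) of the 2989 exonic antisense lncRNAs (grey) and of the 896 with enough reads to be tested (blue), counted in bins. The dashed line at 0.837 FPKM is the median of all 2989; few features lie above 100 FPKM.

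A large part of the reads belonged to 1 RNA. Rmrp (ENSMUST00000157463), the RNA of the RNase MRP ribonuclease that processes ribosomal RNA, crosses the 5′ end of Ccdc107 by 124 bp of exon and had a mean of 119000 FPKM. It held 42.8% to 74.5% of the reads of the class in a library. Its level was 32400, 17900 and 62500 CPM (counts per 1e+06 counts after TMM scaling) in LPS_ES_PMMA 1, 2 and 3, and 93300, 55000 and 43000 CPM in LPS_PMMA 1, 2 and 3. The groups overlapped, and Rmrp did not pass the test (log2 change -0.76 ± 0.59 SE, edgeR adjusted p = 0.5).

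Next in mean FPKM came Gm28800 (ENSMUST00000186230) at 721 FPKM, opposite Zranb3, which encodes a DNA translocase of stalled replication forks. NONMMUT010786.2, which crosses the 5′ end of Bhlha9, a limb transcription factor gene, had 561 FPKM. Neither passed, with log2 fold changes of -0.46 (SE 0.32) and -0.88 (SE 0.26) and edgeR adjusted p of 0.452 and 0.106. The CPM of NONMMUT010786.2 did not overlap between the groups, at 2120 to 2420 in LPS_ES_PMMA and 3800 to 4480 in LPS_PMMA. Such separation in CPM was found in 30.8% of all tested lncRNAs. In FPKM the groups overlapped for this feature, at 432 to 539 in LPS_ES_PMMA and 447 to 829 in LPS_PMMA. Of the features opposite Zfp541, Cpt1c, Eng and Ccdc187, at 219, 187, 176 and 171 FPKM, none passed (edgeR adjusted p 0.128 to 0.797). NONMMUT109982.1, opposite Ccm2l (152 FPKM), fell, with 39.6, 58.3 and 61.0 CPM in LPS_ES_PMMA and 134, 152 and 142 CPM in LPS_PMMA (log2 change -1.43 ± 0.26 SE, edgeR adjusted p = 0.0272), and passed in 0 of 6 leave-one-out fits.

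Depth was low. The libraries held 3261653, 1123551 and 3070657 reads over all listed lncRNAs in LPS_ES_PMMA 1 to 3, and 3697638, 3249485 and 2877523 in LPS_PMMA 1 to 3. Exonic antisense lncRNAs took 6.56% to 8.54% of the reads of a library, and 1.76% to 4.2% without Rmrp. A count of 0 in a library allows up to 0.729 to 1.52 CPM (3 counts, counting error only). On the first principal component (40.4% of variance) the groups lay apart, with the libraries in the order of their TMM factors (0.983 to 1.82 in LPS_ES_PMMA, 0.559 to 0.977 in LPS_PMMA). Treatment and library composition cannot be told apart in this design.

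The comparison asked which antisense lncRNAs differ between cells in the extract with enoxaparin and cells in the extract without it. Of the 2989 features, 896 had enough reads to be tested, and 19 rose and 22 fell in LPS_ES_PMMA at an adjusted p under 0.05. The features that fell include several opposite or near interferon-induced genes, led by the one opposite Slfn8. Those that rose were led by the one opposite Bach2, and 0 of the 19 lie opposite a gene of the lists used here. Few tested features do so at all (6 for the interferon list and 17 for the other lists), so this 0 says little. These 41 are 4.58% of the tested features (2.12% higher and 2.46% lower), close to the 4.76% of all 8873 tested lncRNAs (2.18% higher and 2.58% lower), so the share says nothing particular to the class. The share was 3.52% for exonic sense, 4.58% for intergenic, 3.31% for intronic sense and 6.07% for intronic antisense features.

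The median log2 fold change of the 896 features was 0.00, against 0.03 for all tested lncRNAs, with quartiles of -0.47 and 0.57. An unadjusted p under 0.05 was reached by 194. The 41 features changed by at least 1.38 on the log2 scale in either direction (median 1.93, median SE 0.36), and the libraries of the 2 groups did not overlap in any of them. Passing the test nearly requires such separation, which was also found in 32.0% of the 896 features and in 30.8% of all tested lncRNAs. They lie opposite 39 genes at 40 loci. Nothing in the labels says that the replicates were separate cultures, so the p-values measure the spread between these libraries, which may be technical. Less RNA per cell and fewer cells that make it cannot be told apart in such bulk samples.

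**Figure D2:**
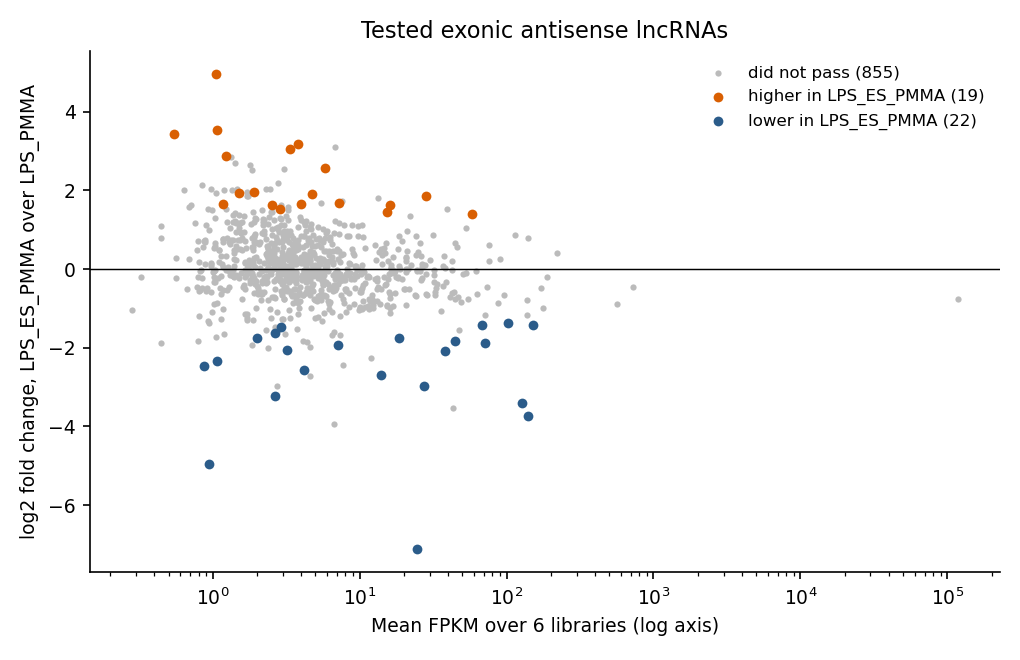
Log2 fold change of LPS_ES_PMMA over LPS_PMMA (vertical axis) against mean FPKM over 6 libraries (horizontal log axis) for the 896 tested exonic antisense lncRNAs. Orange points mark the 19 that rose, blue points the 22 that fell and grey points the rest. The features that changed are spread from 0.546 to 152 FPKM, and Rmrp is the grey point at the far right.

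The split between higher and lower features rested on the scaling. TMM gave 19 higher and 22 lower, DESeq2 size factors 19 and 23, column totals 31 and 7, and totals implied by the FPKM columns 23 and 10. Under these scalings the median of all tested lncRNAs was 0.03, 0.01, 0.82 and 0.46. That of the exonic antisense features was 0.00, -0.02, 0.79 and 0.43. Relative to all lncRNAs it was between -0.03 and -0.02. A change of scaling shifts all features nearly alike, so this difference could hardly move. None of the 41 changed sign (0 of 41 under each scaling), and 24 passed under all 3 others. Leaving out LPS_ES_PMMA 1, 2 or 3 left 1, 1 or 0 features higher and 6, 9 or 5 lower. Without LPS_PMMA 1, 2 or 3 there were 3, 1 or 5 higher and 12, 4 or 9 lower. Of the 41, 26 passed in 0 of these 6 fits and 3 passed in all 6, namely those opposite Als2cl, Urah and Rph3a.

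Among the gene lists, called features were found for interferon genes alone. The other lists had 17 tested features in all, too few for an absence of calls to set them apart. Of 14 features listed opposite 13 genes of the interferon and antiviral list, 6 were tested, and 4 of these fell while 0 rose. Their median log2 fold change was -2.19, against 0.03 for all tested lncRNAs. Relative to that median it was between -2.24 and -2.20 under every scaling. A new scaling shifts all features nearly alike, so this difference could hardly move. The features opposite Slfn8 and Ch25h, and NONMMUT001786.2 opposite Sp110, had fewer than 10 reads in each LPS_ES_PMMA library. These passed the read filter only through LPS_PMMA, where they were high, so the count and median partly follow from that filter. The summed level of the 14 features was 31.1, 32.4 and 38.7 CPM in LPS_ES_PMMA, against 186, 186 and 144 CPM in LPS_PMMA. The groups did not overlap in this sum, but the feature opposite Slfn8 carried much of it. Without that feature, left out after the values were seen, the sum was 31.1, 32.4 and 36.7 CPM in LPS_ES_PMMA, against 89.0, 63.4 and 64.6 CPM in LPS_PMMA. The groups still did not overlap, but this sum holds the called features opposite Ch25h and Sp110. It therefore does not show a fall of the list beyond its called features. The mean sum was 5.05-fold lower in LPS_ES_PMMA with the Slfn8 feature and 2.16-fold lower without it. Instead of 4, the number of list members that fell was 1, 1 or 2 without LPS_ES_PMMA 1, 2 or 3, was 3, 1 or 2 without LPS_PMMA 1, 2 or 3, and was 2 under column totals. The list was drawn up with earlier results of these data known, and a fall of the Slfn8 feature was among them.

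NONMMUT084037.1 (chr11:83011479-83013585, plus strand by its label) has the Slfn8 coding exon printed above inside its listed interval. Slfn8 belongs to the interferon-inducible Schlafen family. Reads of the antisense feature numbered 0, 0 and 6 in LPS_ES_PMMA 1, 2 and 3, against 198, 311 and 220 in LPS_PMMA, which is 0, 0 and 2.02 CPM against 97.3, 122 and 79.4 CPM. All its LPS_ES_PMMA reads came from replicate 3, and every LPS_PMMA library lay far higher, with a log2 change of -7.11 ± 0.95 SE (edgeR adjusted p = 0.012). The call passed in 4 of 6 leave-one-out fits and ended without LPS_ES_PMMA 2 (edgeR adjusted p = 0.0502) and without LPS_PMMA 2 (0.0535). It also ended in a fit with the replicate number as a block (the replicate block). Over all alternatives the adjusted p ranged from 1.23e-17 to 0.0633. Without LPS_ES_PMMA 3 the fitted log2 change was -11.08, a value that rests on the prior count because no read was left in the group. Slfn8 has close paralogs beside it, and no source used here says whether counting used strand, so a read of Slfn8 mRNA or of a paralog may have been counted for the antisense feature. The same limit of strand holds for every feature here.

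NONMMUT105438.1 crosses the 5′ end of Ch25h, the gene of cholesterol 25-hydroxylase, an interferon-induced enzyme whose product blocks viral entry. Reads of the antisense feature numbered 2, 1 and 0 in LPS_ES_PMMA, against 30, 22 and 32 in LPS_PMMA. Scaled for depth, that is 34.5-fold fewer in LPS_ES_PMMA (95% counting interval 11.4 to 171), with no overlap of the groups (log2 change -4.96 ± 0.63 SE, edgeR adjusted p = 0.01). The call ended with the replicate block and without LPS_ES_PMMA 1 (edgeR adjusted p = 0.0618, in a range of 3.45e-05 to 0.0618 over all alternatives).

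Sp110, an interferon-induced nuclear body protein gene, had 2 antisense features, and both fell. NONMMUT001786.2, over the first coding exon printed above, had 1.46, 1.52 and 1.68 CPM in LPS_ES_PMMA and 9.83, 5.9 and 8.3 CPM in LPS_PMMA (log2 change -2.33 ± 0.40 SE, edgeR adjusted p = 0.0217). NONMMUT001784.2, farther along the gene, had 4.37, 4.05 and 3.71 CPM in LPS_ES_PMMA and 20.2, 14.2 and 16.6 CPM in LPS_PMMA (log2 change -2.05 ± 0.30 SE, edgeR adjusted p = 0.0155). The LPS_ES_PMMA libraries lay close together and below every LPS_PMMA library for both. They passed in 0 and 1 of 6 leave-one-out fits. Both were lost under column totals, implied totals, limma on log2(FPKM + 0.1) and the replicate block. Over all alternatives the adjusted p reached 0.112 for NONMMUT001786.2 and 0.131 for NONMMUT001784.2. Sp110 lies among the related genes Sp100 and Sp140, between which similar reads could be divided.

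The other 2 tested members did not pass. Gm17017 (ENSMUST00000161540) crosses the 5′ end of Sp100, the gene that names this nuclear body family, and was picked here after its values were seen. It had 4.37, 2.53 and 3.71 CPM in LPS_ES_PMMA and 8.85, 10.6 and 7.58 CPM in LPS_PMMA (log2 change -1.30 ± 0.36 SE, edgeR adjusted p = 0.088). NONMMUT144713.1 crosses the 5′ end of Ifnar1, the gene of a subunit of the type I interferon receptor. Its level was 14.8, 14.7 and 15.5 CPM in LPS_ES_PMMA and 12.8, 13.8 and 10.8 CPM in LPS_PMMA (log2 change 0.27 ± 0.25 SE, edgeR adjusted p = 0.577).

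Too few reads for the test were found for 8 members, with 23, 18 and 36 reads in all in LPS_ES_PMMA, against 46, 26 and 27 in LPS_PMMA. Slfn5os, named for the Schlafen gene Slfn5, accounted for 5, 3 and 7 of them in LPS_ES_PMMA and 36, 20 and 7 in LPS_PMMA. Gm20234, opposite the Schlafen gene Slfn2, was without reads in LPS_ES_PMMA (0 in 3 libraries), against 3, 1 and 5 in LPS_PMMA. The feature opposite Gbp5, an interferon-induced GTPase gene, was read 3, 3 and 4 times in LPS_ES_PMMA, against 1, 0 and 1 in LPS_PMMA. The others lie opposite Parp10, Herc6, Psmb10, Tlr3 and Irgm1, and the groups overlapped for each of them.

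Some features that fell lie opposite other genes but close to an interferon gene. Within 100 kb of a gene of the list, a distance chosen after these neighbours were seen, 30 features were tested, and 8 at 7 loci fell while 1 rose. At 50 kb it was 7 lower and 1 higher of 24, and at 10 kb 4 lower of 7. The median log2 fold change within 100 kb was -0.64, although it was 0.03 under column totals. Relative to all lncRNAs it was between -0.78 and -0.65 under every scaling, a difference that a new scaling could hardly move. The list members that passed the read filter only through LPS_PMMA are among these features. Without LPS_ES_PMMA 1, 2 or 3 the number lower within 100 kb was 3, 6 or 3, and without LPS_PMMA 1, 2 or 3 it was 7, 2 or 5. Among the 866 tested features farther away, 18 rose and 14 fell, with a median of 0.02.

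**Figure D3:**
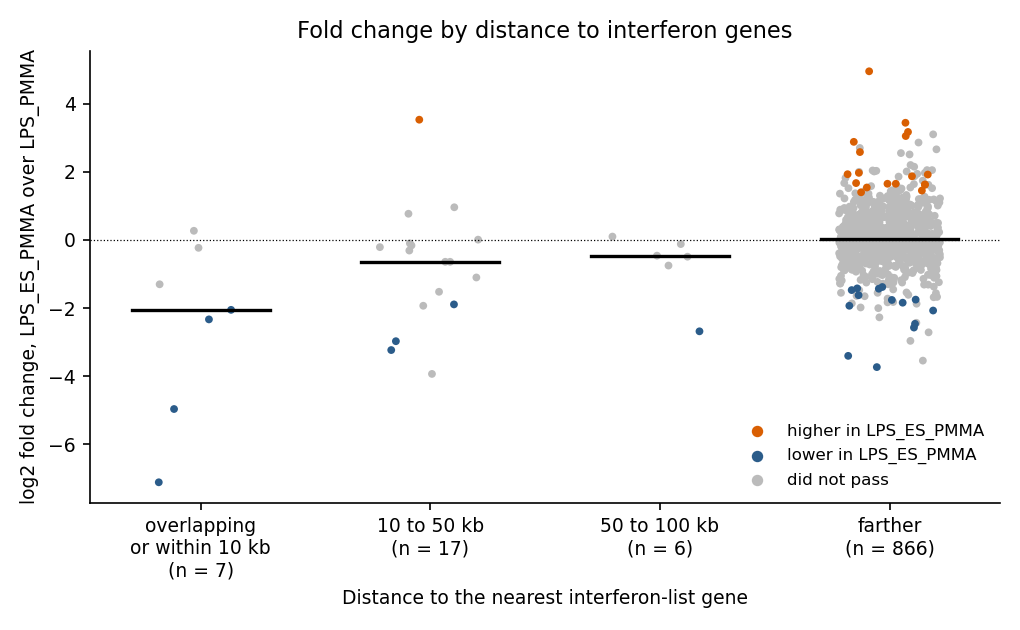
Log2 fold change of LPS_ES_PMMA over LPS_PMMA (vertical axis) for the 896 tested exonic antisense lncRNAs, by distance of the listed interval to the nearest gene of the interferon and antiviral list. Points are features (orange rose, blue fell, grey did not pass), and the black lines are medians of -2.05 (n = 7), -0.64 (n = 17), -0.48 (n = 6) and 0.02 (n = 866).

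NONMMUT119339.1 has a coding exon of Rph3a, the gene of the synaptic vesicle protein rabphilin, inside its listed interval. The feature lies 54.4 kb from Oas1a, an interferon-induced sensor of double-stranded RNA. Its level was 4.13, 4.05 and 6.4 CPM in LPS_ES_PMMA and 32.4, 28.7 and 33.2 CPM in LPS_PMMA. The libraries of each group were close together (log2 change -2.68 ± 0.30 SE, edgeR adjusted p = 0.00612), and the call held in 6 of 6 leave-one-out fits. NONMMUT149135.1, also inside Rph3a and chosen after its values were seen, was counted 0, 11 and 0 times in LPS_ES_PMMA, against 53, 56 and 53 in LPS_PMMA. It did not pass (log2 change -3.93 ± 1.09 SE, edgeR adjusted p = 0.0874), with all its LPS_ES_PMMA reads in replicate 2.

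Gm20559 (ENSMUST00000201976) and NONMMUT123372.1 span the TEC model Gm43198, at 26.2 and 36.2 kb from Samd9l, an interferon-induced antiviral gene. Gm20559 had 7.53, 3.04 and 9.77 CPM in LPS_ES_PMMA and 68.3, 52.7 and 42.2 CPM in LPS_PMMA (log2 change -2.97 ± 0.43 SE, edgeR adjusted p = 0.0153). It passed in 3 of 6 leave-one-out fits and was lost without LPS_ES_PMMA 1, without LPS_ES_PMMA 3 and without LPS_PMMA 2. It was also lost with the replicate block. NONMMUT123372.1 had 132, 89.7 and 144 CPM in LPS_ES_PMMA and 354, 490 and 513 CPM in LPS_PMMA (log2 change -1.89 ± 0.29 SE, edgeR adjusted p = 0.017). It passed in 2 of 6 leave-one-out fits and was lost under column totals, implied totals, both limma fits and the replicate block. Over all alternatives its adjusted p ranged from 1.27e-05 to 0.106. NONMMUT055555.2, opposite the same gene, did not pass (log2 change -1.93 ± 0.50 SE, edgeR adjusted p = 0.0748). As listed these intervals overlap, so they may share reads.

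The smallest adjusted p in the class belonged to a feature away from any interferon gene of the list. NONMMUT135390.1 (chr9:110884577-110894687, minus strand) lies inside Als2cl, which encodes a relative of the guanine nucleotide exchange factor alsin. It had 18.2, 11.7 and 19.9 CPM in LPS_ES_PMMA, against 256, 240 and 169 CPM in LPS_PMMA. Every LPS_ES_PMMA library lay far below every LPS_PMMA library (log2 change -3.73 ± 0.33 SE, edgeR adjusted p = 0.00279), and the call held in 6 of 6 leave-one-out fits.

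C330022C24Rik (ENSMUST00000190581), which crosses the 3′ end of the urate breakdown gene Urah, fell to a similar degree. It had 28.4, 42.0 and 51.9 CPM in LPS_ES_PMMA and 596, 380 and 318 CPM in LPS_PMMA (log2 change -3.40 ± 0.37 SE, edgeR adjusted p = 0.00584, 6 of 6 fits). The call was lost with the replicate block. Own exons of C330022C24Rik meet exons of Urah over 177 bp.

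Smaller falls followed. NONMMUT115744.1, which spans the snRNA gene Gm25270, had 6.07, 3.04 and 11.8 CPM in LPS_ES_PMMA and 66.4, 29.5 and 31.1 CPM in LPS_PMMA (log2 change -2.57 ± 0.54 SE, edgeR adjusted p = 0.0392). Gm4793 (ENSMUST00000067468), opposite the neuron navigator gene Nav1, had 0.729, 0.507 and 2.02 CPM in LPS_ES_PMMA and 6.39, 6.69 and 5.78 CPM in LPS_PMMA (log2 change -2.46 ± 0.52 SE, edgeR adjusted p = 0.0401). NONMMUT110140.1, at the 5′ end of Cse1l, the gene of the exportin that recycles importin alpha, had 26.7, 30.9 and 36.0 CPM in LPS_ES_PMMA and 181, 116 and 95.7 CPM in LPS_PMMA (log2 change -2.07 ± 0.32 SE, edgeR adjusted p = 0.017). In all 3 the LPS_ES_PMMA libraries lay below every LPS_PMMA library. NONMMUT061032.2, at the 3′ end of the synaptic adhesion gene Lrrc4b, had 7.04, 3.55 and 8.09 CPM in LPS_ES_PMMA and 29.0, 17.7 and 26.4 CPM in LPS_PMMA (log2 change -1.93 ± 0.37 SE, edgeR adjusted p = 0.0307). These 4 passed in 0, 0, 2 and 0 of 6 leave-one-out fits.

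**Figure D4:**
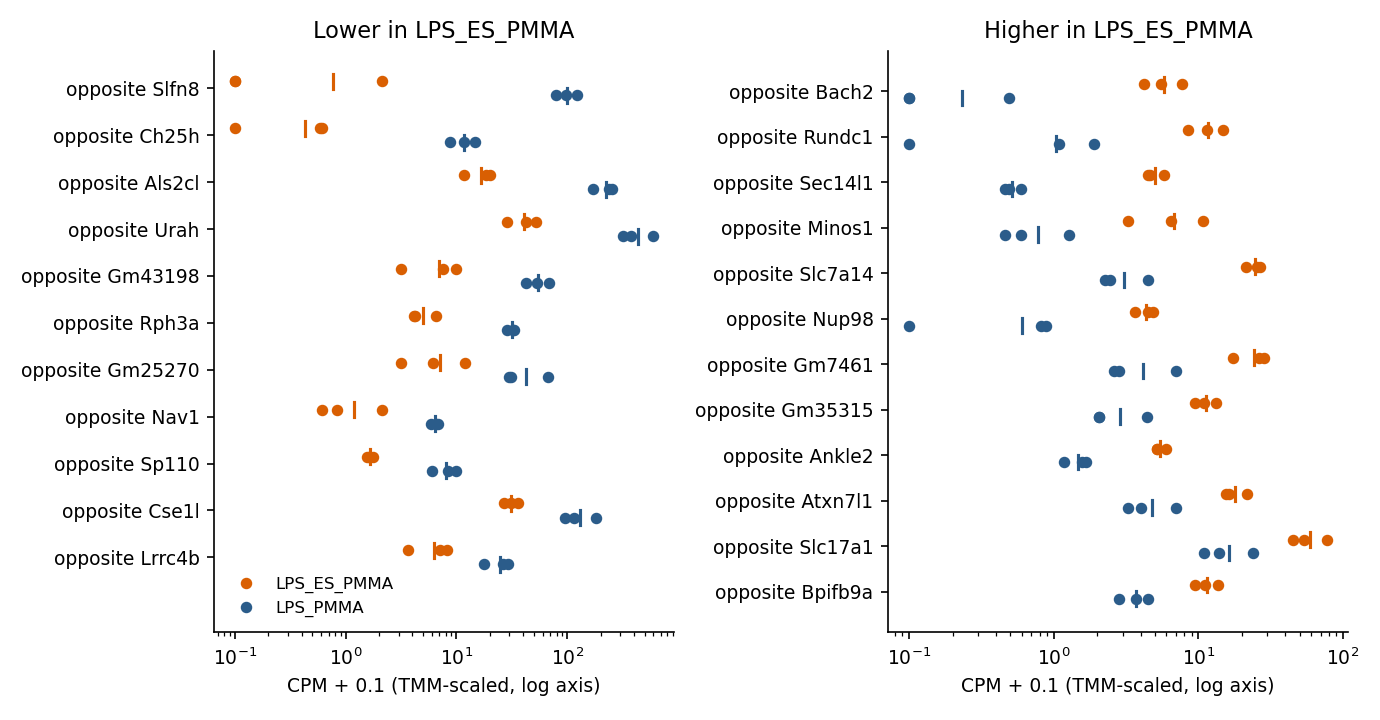
TMM-scaled CPM plus 0.1 (log axis) in each library for 11 of the 12 exonic antisense lncRNAs with the strongest fall (left panel) and the 12 with the strongest rise (right panel), 1 per opposite gene. Orange points are the LPS_ES_PMMA libraries and blue points the LPS_PMMA libraries (3 each), and vertical ticks are group means. A point at 0.1 is a library with 0 reads, and the groups do not overlap in any row. In several rows the read filter was passed only through the group where the feature was high.

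Among features that rose, NONMMUT116504.1, inside Bach2, had the largest change. Bach2 encodes a transcriptional repressor of lymphocytes. The antisense feature was counted 17, 15 and 16 times in LPS_ES_PMMA, against 0, 1 and 0 in LPS_PMMA. Scaled for depth, that is 38.9-fold more in LPS_ES_PMMA (95% counting interval 6.66 to 1570), with a log2 change of 4.95 ± 0.80 SE (edgeR adjusted p = 0.0186). The level was even across the LPS_ES_PMMA libraries in reads, although LPS_ES_PMMA 2 was the shallowest, and the call passed in 0 of 6 leave-one-out fits.

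NONMMUT012070.2, at the 3′ end of Rundc1 and 11.1 kb from the interferon-induced gene Ifi35, rose, unlike the other called features near interferon genes. It had 11.4, 14.7 and 8.42 CPM in LPS_ES_PMMA and 0.983, 0 and 1.81 CPM in LPS_PMMA (log2 change 3.53 ± 0.69 SE, edgeR adjusted p = 0.0319). NONMMUT012898.2, over the Sec14l1 exon printed above, was counted 18, 9 and 17 times in LPS_ES_PMMA, against 1, 1 and 1 in LPS_PMMA, which is 11.9-fold more in LPS_ES_PMMA (95% counting interval 3.81 to 59.9; log2 change 3.44 ± 0.50 SE, edgeR adjusted p = 0.0155). Sec14l1 encodes a protein with a lipid-binding SEC14 domain. NONMMUT115821.1, at the 5′ end of Minos1, the gene of a subunit of the mitochondrial cristae complex MICOS, had 3.16, 10.6 and 6.4 CPM in LPS_ES_PMMA and 0.492, 1.18 and 0.361 CPM in LPS_PMMA (log2 change 3.17 ± 0.69 SE, edgeR adjusted p = 0.0447). The 3 features rest on 0 to 5 reads in each LPS_PMMA library and passed in 0 of 6 leave-one-out fits.

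The smallest adjusted p among features that rose belonged to NONMMUT042421.2, inside Slc7a14, a gene of the cationic amino acid transporter family. It had 25.5, 21.3 and 26.6 CPM in LPS_ES_PMMA and 4.42, 2.36 and 2.17 CPM in LPS_PMMA (log2 change 3.05 ± 0.35 SE, edgeR adjusted p = 0.00717). The libraries of each group lay close together. It passed in 4 of 6 leave-one-out fits, and was lost without LPS_ES_PMMA 3 (edgeR adjusted p = 0.051) and without LPS_PMMA 2 (0.0543), in a range of 2.78e-06 to 0.0543 over all alternatives.

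NONMMUT151199.1, opposite the nuclear pore gene Nup98, had 4.37, 3.55 and 4.72 CPM in LPS_ES_PMMA and 0, 0.787 and 0.722 CPM in LPS_PMMA (log2 change 2.88 ± 0.64 SE, edgeR adjusted p = 0.046). NONMMUT064461.2, which spans the TEC model Gm7461, had 17.2, 28.4 and 26.3 CPM in LPS_ES_PMMA and 6.88, 2.75 and 2.53 CPM in LPS_PMMA (log2 change 2.58 ± 0.44 SE, edgeR adjusted p = 0.0227). NONMMUT016678.2, at the 5′ end of Slc17a1, a phosphate and urate transporter gene best known from kidney, had 44.9, 77.5 and 53.6 CPM in LPS_ES_PMMA and 23.6, 13.8 and 10.8 CPM in LPS_PMMA (log2 change 1.87 ± 0.38 SE, edgeR adjusted p = 0.0348). Each LPS_ES_PMMA library exceeded each LPS_PMMA library in these features, which passed in 0, 1 and 1 of 6 leave-one-out fits.

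Atxn7l1os1 (ENSMUST00000155877) had 21.6, 16.2 and 15.5 CPM in LPS_ES_PMMA and 3.93, 3.15 and 6.86 CPM in LPS_PMMA (log2 change 1.92 ± 0.37 SE, edgeR adjusted p = 0.0307). NONMMUT149642.1, over the start codon of Ankle2, a nuclear envelope protein gene, had 5.83, 5.07 and 5.05 CPM in LPS_ES_PMMA and 1.47, 1.57 and 1.08 CPM in LPS_PMMA (log2 change 1.93 ± 0.41 SE, edgeR adjusted p = 0.04). The features opposite Gm35315 (NONMMUT119121.1) and Bpifb9a (NONMMUT040603.2), a gene of the BPI-fold family, rose with log2 fold changes of 1.97 (SE 0.42) and 1.67 (SE 0.35) and edgeR adjusted p of 0.0417 and 0.0412. These 4 passed in 0 of 6 leave-one-out fits.

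Other called features had log2 fold changes between -1.84 and 1.65. Those that fell lie opposite Spata33, Gm43280, Plgrkt, Acat1, Uchl1, Rab1b and Scrn2, and those that rose opposite Cmtm6, Osbpl7, Cep57l1, Nxph4, Zfp106, D430020J02Rik and Cuedc2. Cmtm6 encodes a protein that keeps PD-L1 at the cell surface, and the feature at its 5′ end, NONMMUT071213.2, chosen after its values were seen, had 226, 288 and 327 CPM in LPS_ES_PMMA and 113, 97.6 and 107 CPM in LPS_PMMA (log2 change 1.40 ± 0.25 SE, edgeR adjusted p = 0.0242). It passed in 0 of 6 leave-one-out fits and was also lost without a filter and with the replicate block, with adjusted p from 0.00176 to 0.136 over all alternatives. Uchl1 is known in mouse neurons for an antisense RNA at its 5′ end that promotes translation of the Uchl1 mRNA. NONMMUT120613.1 crosses that end too, and whether it is the same RNA was not tested. Chosen after its values were seen, it fell, with 4.13, 6.08 and 4.04 CPM in LPS_ES_PMMA and 11.8, 15.3 and 11.9 CPM in LPS_PMMA (log2 change -1.47 ± 0.33 SE, edgeR adjusted p = 0.0468). This call passed in 0 of 6 leave-one-out fits. It was also lost under column totals, implied totals, DESeq2, both limma fits, the replicate block and both other filters. Over all alternatives its adjusted p ranged from 0.0442 to 0.415.

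Of the 17 tested features of the other lists, edgeR called 0, with 1 at an unadjusted p under 0.05; DESeq2 called 0 and limma called 0 on log2(FPKM + 0.1) and 1 on log2(FPKM + 1). Opposite LPS and NF-kB response genes 17 features were listed, but 1 had enough reads, NONMMUT000253.2 at the 5′ end of Ly96, the gene of the LPS-binding partner of TLR4. It had 6.31, 13.2 and 12.8 CPM in LPS_ES_PMMA and 5.41, 10.6 and 9.75 CPM in LPS_PMMA, with overlap (log2 change 0.29 ± 0.41 SE, edgeR adjusted p = 0.733). Opposite alternative (M2) activation genes 4 features were listed and 0 tested, and their summed level was 1.94, 2.53 and 1.35 CPM in LPS_ES_PMMA and 8.85, 3.15 and 4.33 CPM in LPS_PMMA. This sum was lower in every LPS_ES_PMMA library and was not tested. It rests on few reads, with at most 15 for a feature in a library. The feature opposite Tgfbr1 alone gave 7.37, 0 and 1.44 CPM of it in LPS_PMMA, from 15, 0 and 4 reads. That feature had 0 reads in LPS_ES_PMMA, so the separation of the groups leans on it. The other features of these lists held too few reads to be tested.

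Opposite macrophage identity genes 2 of 5 listed features were tested, at the actin-bundling gene Lcp1 and the kinase gene Lyn, with log2 fold changes of -0.60 and -0.33. For proliferation genes it was 1 of 8 (Cdkn2c, 0.06), for NRF2 genes 2 of 5 (both opposite Keap1, -0.24 and 0.09) and for stress genes 2 of 8 (both opposite Dnajc3, -0.16 and 0.47). Among glycolysis and hypoxia genes 2 of 12 were tested (Car9, 0.36, and Slc2a1, 0.44), among sterol genes 2 of 5 (Idi1, -0.46, and Fdft1, 0.02) and among chromatin regulators 4 of 17. The chromatin features included those opposite Asxl1 (-1.55), Setdb1 (0.73) and Tet1 (1.02). The edgeR adjusted p for these lists lay between 0.266 and 0.983. None of 34 described antisense lncRNAs, such as Tsix or Kcnq1ot1, had a feature of the class listed opposite its own gene (0 of 34). Whether any of them is itself a member was not tested.

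Markers of other cell types had 8 features opposite them. The tested one crosses the 5′ end of the epithelial keratin gene Krt8 (NONMMUT096548.1) and had 53.4, 58.3 and 66.7 CPM in LPS_ES_PMMA and 31.0, 33.8 and 34.3 CPM in LPS_PMMA, without passing (log2 change 0.85 ± 0.23 SE, edgeR adjusted p = 0.088). It was the feature called by limma on log2(FPKM + 1). The summed level of the 8 was 56.8, 59.8 and 72.4 CPM in LPS_ES_PMMA and 51.1, 35.8 and 41.2 CPM in LPS_PMMA. It was thus higher in every LPS_ES_PMMA library, but the Krt8 feature held most of it in each library. The feature opposite the lymphocyte gene Pax5 went the other way. It had 0.486, 0 and 0.674 CPM in LPS_ES_PMMA and 17.7, 0 and 3.97 CPM in LPS_PMMA. The sum therefore does not describe these markers as a group, and its part in the other results was not tested.

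Features opposite the same gene did not always move alike. Of 88 genes with at least 2 tested features, 54 had the same sign in all of them. NONMMUT149643.1, inside Ankle2, had 8.26, 7.09 and 8.76 CPM in LPS_ES_PMMA and 14.7, 15.3 and 17.0 CPM in LPS_PMMA, a log2 change of -0.96 ± 0.26 SE (edgeR adjusted p = 0.0844), while the feature over its start codon rose. Second features opposite Zfp106, Cuedc2 and Plgrkt had the sign of the called one without passing (edgeR adjusted p 0.12, 0.618 and 0.147). With reads summed over all features of a gene, 16 genes were higher and 21 lower.

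By position, the share called was 5.07% inside the opposite gene, 4.15% across its 5′ end, 3.49% across its 3′ end and 5.56% where the feature spans the gene. It was 4.59% opposite protein-coding genes. Features over a coding exon were called in 4.15% of cases and others in 5.36%, and the tested median log2 fold change lay between -0.04 and 0.14 in the 4 positions. These shares were not tested against each other.

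In the authors' deposited table, 101 of the 2989 exonic antisense features are marked up (UP) and 61 down (DOWN). Of all 24817 listed lncRNAs, 1075 are marked up (4.33%) and 618 down (2.49%). Of these 162, 61 had too few reads for the test used here. Of the 41 features called here, 39 carry the authors' mark in the same direction, which is 95.1% of the 41 and 24.1% of the 162. The exceptions are those opposite Rab1b and Scrn2. The authors' marks rest on the same counts and on a threshold that admits weaker evidence. For example, the Krt8 feature is marked UP at an authors' q-value of 0.296. Both shares are therefore partly set by the thresholds and are not independent agreement.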

How the data were processed

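RNA of 6 libraries of LPS-stimulated RAW264.7 cells, 3 per group, was extracted with an RNeasy kit and prepared with a SMARTER mRNA kit, per the labels' protocols. The count columns of the deposited table are the authors' whole-number reads per lncRNA, per the file headers, without normalization. The FPKM columns are the authors', per the file headers, and were used for comparisons between features. Per the file headers, the authors' own comparison is deposited as log2 fold changes with a p-value and a q-value, and their marks UP and DOWN are used only where the deposited table is named. Per the submitters' processing notes the build is mm10. Aligner, counter and use of strand were not given in the sources used here. All per-sample columns were used (0 left out).

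Members, lists, the rule for named features and the alternatives were chosen with earlier results of these data known. Counts of all 24817 features were filtered with filterByExpr (minimum count 10, minimum total 15), scaled by TMM and compared between the groups with the quasi-likelihood test of edgeR 4.0.16 in R 4.3.3, with Benjamini-Hochberg adjustment over 8873 tested features. Column totals ranged from 1123551 to 3697638 reads, and the common biological coefficient of variation was 0.415. A called feature has an adjusted p under 0.05; SE, an approximation, divides the log2 change by the root of the F statistic, and fitted values use a prior count of 0.125. The fit was tested on simulated data. CPM are counts over TMM-scaled totals, and counting intervals cover counting error only.

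Opposite genes, exons and biotypes came from GENCODE M21 (GRCm38), in which all 2989 gene identifiers were found. Named are the 12 called features with the largest and the 12 with the smallest log2 change (1 per opposite gene), the 8 with the highest mean FPKM, up to 3 tested members per list and the feature opposite Slfn8; others are said to be chosen after their values were seen, and 1 named feature is not reported here. Alternatives were other scalings, filters and tools (limma 3.58.1 on log2 FPKM with pseudocounts of 0.1 and 1, DESeq2 1.42.0, robust edgeR), a replicate block, leaving out each library and summing reads per opposite gene.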

Additional observations from a re-analysis of the deposited data

How the results depend on the processing

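DESeq2 size factors, DESeq2, robust edgeR and sums per opposite gene kept the counts of 19 features higher and 22 lower within 1.5 times. Features higher and lower numbered 31 and 7 under column totals, 11 and 9 with limma on log2(FPKM + 0.1), 5 and 13 with a mean FPKM of at least 1, 4 and 12 without a filter, and 1 and 2 with the replicate block. Those left with the block lie opposite Slc7a14 (higher), Als2cl and Rph3a (both lower). With limma on log2(FPKM + 1) 40 were higher, and under totals implied by FPKM 10 were lower. Leaving out 1 library gave 0 to 5 higher and 4 to 12 lower. The number of lower interferon-list features, 4, was 2 under column totals, limma on log2(FPKM + 0.1) and implied totals, 0 with the block, and 1 to 3 without 1 library. The number within 100 kb of an interferon gene, 8, was 5 under the same 3 alternatives, 1 with the block and 2 to 7 without 1 library. The median log2 change of 0.00 became 0.79 under column totals, 0.43 under implied totals and limma on log2(FPKM + 0.1), 0.33 on log2(FPKM + 1), 0.08 with a mean FPKM of at least 1 and 0.14 without a filter. Summed over all antisense features of the gene, Minos1 stood at -0.63 (edgeR adjusted p = 0.807) and Ankle2 at -0.35 (0.443), against a rise of the called feature, and each sum holds other features of that gene. For the other changes the cause was not tested. In the labels, same-numbered replicates share only a number, and their deviations correlated at -0.0162, -0.0314 and -0.0823. With 3 libraries per group these values cannot decide whether same-numbered libraries were paired. The shallowest library, LPS_ES_PMMA 2, had 1123551 reads, and 2093 features had too few reads to be tested, so their changes were not assessed.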
